A study of Mus musculus with 12 samples.

Results

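ETS transcription factors of mouse inner medullary collecting duct cells are the subject of the measurements given here. The 10 members, Ets1, Ets2, Elf1, Elf3, Elf4, Ehf, Etv4, Etv5, Etv6 and Elk3, were taken by symbol from the 47642 genes of the expression table and belong to the 27 ETS family genes listed in it. RNA was sequenced from mIMCD3 cells, a line derived from the inner medullary collecting duct of mice that express the early region of SV40, with 4 libraries each from wild-type (Wt), Pkd1-/- and Pkd2-/- cells. The Pkd1-/- line lacks the full Pkd1 gene after CRISPR editing, and the Pkd2-/- line lacks an internal stretch of Pkd2 exons after TALEN editing. All cells carry the viral transgene and were kept in serum-containing medium, and RNA was taken 4 days after full confluency from 6 dishes per genotype, of which 4 were sequenced. Each mutant was 1 clone, so the replicates are dishes of the same clone, p-values measure the spread between dishes, and the effect of a genotype and the difference between clones cannot be told apart. The comparison asks which of these factors differ in abundance when polycystin-1 or polycystin-2 is lost, and whether the losses act on them alike.

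ETS proteins share a winged helix-turn-helix domain that reads a GGAA core in DNA, and most of them act as transcriptional activators while a few repress. Many are direct substrates of the kinase ERK at the end of the Ras cascade, through which growth factors change their activity without any change in their mRNA. In the kidney, Etv4 and Etv5 act downstream of the receptor Ret in the branching ureteric bud from which the collecting duct arises, and Elf3 and Ehf belong to an ETS subgroup that is typical of epithelia.

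Labels and cell type were checked first. Pkd1 was at 30 to 49 normalized counts (reads divided by a library size factor) in the Pkd1-/- libraries, 682 to 883 in Wt and 1057 to 1492 in Pkd2-/-. Pkd2, of which only part is deleted, was at 3438 to 4467 in Wt, 2545 to 2858 in Pkd1-/- and 3855 to 4135 in Pkd2-/-, so its total does not check the Pkd2-/- label. Of 12 markers of collecting duct and renal epithelium, Cdh1, Epcam, Krt8, Krt18, Pax2, Pax8 and Cdh16 were at 1482 or more in every library, but Aqp2, the water channel that defines principal cells, was at 0 in all 12 libraries and Aqp3 reached at most 6. Gata3, a factor of the collecting duct, was at 176 to 248 in Wt, 42 to 56 in Pkd1-/- and 294 to 430 in Pkd2-/-, and Scnn1a, a sodium channel subunit, at 68 to 80, 63 to 91 and 112 to 131. Of the 11 markers tested, 3 passed in Pkd1-/-, all lower, and 9 in Pkd2-/-, 8 higher and 1 lower, by the limma test described below, beside 27.1% and 42.3% of all genes. In each genotype, 5 of 7 markers of endothelium, 3 of 6 of leukocytes and 3 of 6 of fibroblasts had no library above 3. The summed markers of leukocytes were at 896 to 1003 in Wt, 440 to 660 in Pkd1-/- and 734 to 829 in Pkd2-/-, mostly Csf1r. Those of proximal tubule were at 480 to 557, 33 to 71 and 744 to 1222, mostly Lrp2, and those of endothelium at 144 to 163, 293 to 330 and 209 to 251, mostly Egfl7. Their part in the ETS values was not tested. In such bulk RNA, fewer cells of a type and less RNA per cell cannot be told apart. The libraries held 25966273 to 26859930 normalized counts each in Wt, 26132745 to 26314333 in Pkd1-/- and 27197060 to 28027792 in Pkd2-/-. Every Pkd2-/- total lay above those of the other genotypes. The read depth behind the totals was not used here.

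An upstream sequence is shown for each of 3 members. The sequences shown carry different numbers of the ETS core, and the genes behaved differently. Elk3 was lower in Pkd2-/- cells, Elf4 was higher in both mutants and Etv6 was higher in Pkd2-/- cells. Each sequence is the 250 bases before a RefSeq start site in GRCm38.p6, 5′ to 3′ on the gene's strand. GGAA, or TTCC where the core lies on the other strand, is in capitals. The window of Elk3 is chr10:93311160-93311409 on the minus strand, that of Elf4 is chrX:48463133-48463382 on the minus strand, and that of Etv6 is chr6:134035450-134035699 on the plus strand.
Elk3: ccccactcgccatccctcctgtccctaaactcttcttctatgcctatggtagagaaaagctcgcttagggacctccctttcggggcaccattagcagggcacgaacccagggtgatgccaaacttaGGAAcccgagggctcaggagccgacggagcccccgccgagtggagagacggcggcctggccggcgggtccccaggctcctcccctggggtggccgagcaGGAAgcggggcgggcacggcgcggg
Elf4: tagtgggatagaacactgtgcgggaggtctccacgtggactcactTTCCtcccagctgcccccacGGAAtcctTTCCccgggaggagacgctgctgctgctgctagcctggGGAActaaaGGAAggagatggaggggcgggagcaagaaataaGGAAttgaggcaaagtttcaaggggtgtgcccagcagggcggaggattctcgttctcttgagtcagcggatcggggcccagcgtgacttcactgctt
Etv6: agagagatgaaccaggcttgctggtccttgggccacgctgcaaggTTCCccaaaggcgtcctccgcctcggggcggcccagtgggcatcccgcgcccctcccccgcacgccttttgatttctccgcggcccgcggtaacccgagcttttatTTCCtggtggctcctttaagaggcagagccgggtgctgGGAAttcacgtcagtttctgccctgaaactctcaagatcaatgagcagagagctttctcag
In the windows shown, Elk3 had 2 matches, Elf4 had 6 and Etv6 had 3, beside a median of 3 over 32851 windows of the same length. Elf4 has another window, chrX:48454320-48454569 on the minus strand, which had 2 matches, as many as Elk3. GGAA on either strand occurred in 93.4% of those windows, so its presence does not set these genes apart. A longer ETS motif, CCGGAAG, was found on either strand in 6.91% of all windows and in 0 of the 10 windows of the 7 members with an entry. The AP-1 motif TGANTCA was found in 2 of those 10 windows and in 6.75% of all windows. Of the 2, 1 was the Elf4 window shown, and the other Elf4 window had no match. The CArG box, the site read by the partner of the ternary complex factors, was found in 0 of the 10 and in 1.47% of all. Ets1, Ehf and Etv4 have no entry in the sequence table. These are matches of letters and were not tested as binding sites.

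**Figure D1:**
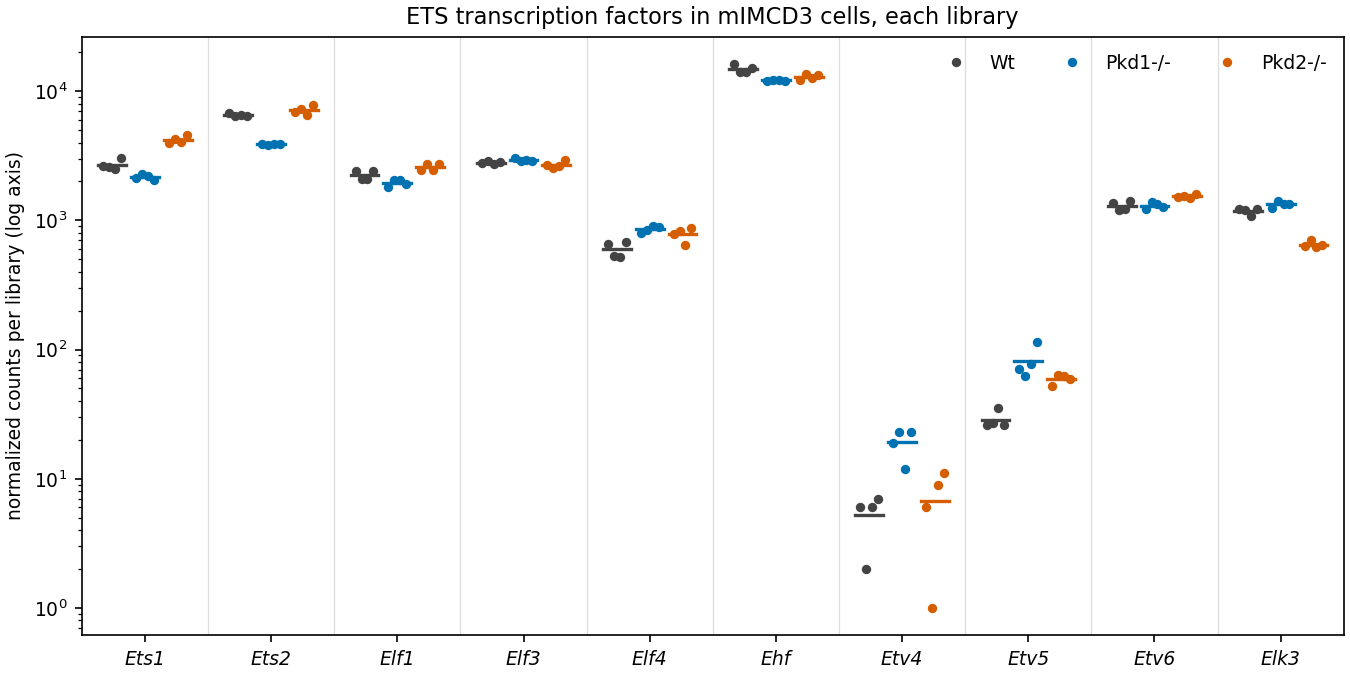
Normalized counts of the 10 ETS members (log axis) in each of 12 libraries, with points for libraries and lines for genotype means. Ets2 lay lower in all 4 Pkd1-/- libraries (3819 to 3916) than in any other, and Elk3 lay lower in all 4 Pkd2-/- libraries (623 to 700).

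Against Wt, 8 of the 10 members passed the test in Pkd1-/- cells, 4 higher and 4 lower, where 27.1% of the 18552 genes tested did. In Pkd2-/- cells 7 of 10 passed, 5 higher and 2 lower, beside 42.3% of all genes. The test was limma's moderated test on log2(normalized count + 1), with Benjamini-Hochberg adjusted p under 0.05. Etv4 and Etv5 also reached the fold threshold, a log2 change of 1 in either direction, in Pkd1-/- cells, beside 6.24% of all genes. Etv5 alone reached it in Pkd2-/- cells, beside 9.62%. Most members that passed therefore changed by less than the fold threshold. The libraries of mutant and Wt did not overlap for 8 members in Pkd1-/- cells, beside 27.1% of all genes, and for 6 in Pkd2-/- cells, beside 37.2%. The median log2 fold change of the 10 members was 0.032 in Pkd1-/- and 0.17 in Pkd2-/-, beside 0.011 and -0.0064 over all genes tested. Both comparisons share the Wt libraries, so the mutants were also compared directly, where 6 of 10 members differed, beside 46.3% of all genes. Of these, 4 were higher in Pkd2-/-, beside 21.9% of all genes, and 2 lower, beside 24.3%. The libraries of the mutants did not overlap for 7 members, beside 41.8% of all genes, and 2 members, Etv4 and Elk3, passed the fold threshold too, beside 11.8%.

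Ets1 and Ets2 are closely related activators whose N-terminal region is phosphorylated by ERK. Ets1 (chr9:32636221-32757820, plus strand, GRCm38) was at 2651, 2606, 2486 and 3013 normalized counts in Wt libraries 1 to 4. It was at 2136, 2290, 2193 and 2040 in Pkd1-/- and at 3974, 4278, 4006 and 4589 in Pkd2-/-. The 3 genotypes did not overlap, with Pkd1-/- lowest and Pkd2-/- highest. Ets1 fell to 80.5% of the Wt mean in Pkd1-/- cells (log2 fold change -0.31 ± 0.062, SE, limma adjusted p = 0.000776). It rose to 157% in Pkd2-/- cells (0.65 ± 0.062, limma adjusted p = 7.95e-08). The mutants lay on opposite sides of Wt, and their difference was 0.96 on the log2 scale (limma adjusted p = 2.52e-10).

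Ets2 (chr16:95702075-95721051, plus strand) was at 6727, 6451, 6497 and 6458 in Wt. It was at 3885, 3819, 3916 and 3900 in Pkd1-/- and at 6867, 7306, 6546 and 7755 in Pkd2-/-. All Pkd1-/- libraries lay well below the others, while Pkd2-/- replicate 3 lay within the Wt range. Ets2 fell to 59.4% of the Wt mean in Pkd1-/- cells (-0.75 ± 0.048, limma adjusted p = 7.55e-10). In Pkd2-/- cells the mean was 109% of Wt and did not pass the test (0.12, 95% interval 0.020 to 0.22, limma adjusted p = 0.0519). The direct difference between the mutants was 0.87 (limma adjusted p = 2.75e-11). Per kb of exons, Ets1 stood to Ets2 at a ratio of 0.281 ± 0.0256 (SD, n = 4 libraries) in Wt, 0.381 ± 0.0217 in Pkd1-/- and 0.404 ± 0.00978 in Pkd2-/-. The ratio was higher in all 8 mutant libraries than in any Wt library, with Ets2 lower in Pkd1-/- and Ets1 higher in Pkd2-/-.

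Elf1 and Elf4 form an ETS subgroup known from blood and endothelial cells, in which Elf4 takes part in quiescence and innate immune responses. Elf1 (chr14:79481194-79582494, plus strand) was at 2411, 2099, 2083 and 2396 in Wt. It was at 1796, 2059, 2059 and 1917 in Pkd1-/- and at 2460, 2737, 2452 and 2745 in Pkd2-/-. The order of genotypes was that of Ets1, but the gaps were narrow, with the highest Pkd1-/- library at 2059 and the lowest Wt library at 2083. Elf1 fell to 87.1% of the Wt mean in Pkd1-/- (-0.20 ± 0.064, limma adjusted p = 0.0277) and rose to 116% in Pkd2-/- (0.21 ± 0.064, limma adjusted p = 0.0123). The first call was lost without replicate 1 or 4 of Wt or of Pkd1-/- (adjusted p up to 0.0943) and the second without Wt replicate 3 (adjusted p = 0.0509), by the same limma test. The difference between the mutants was 0.41 (limma adjusted p = 3.15e-05), a call that held with each library left out. On the opposite strand, Elf1 shares 327 of its 6737 exon bases with Wbp4, and the strand setting of the counting is not given in the sources used here.

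Elf4 (chrX:48411046-48463132, minus strand) was at 654, 526, 525 and 675 in Wt. It was at 805, 843, 902 and 887 in Pkd1-/- and at 791, 833, 650 and 878 in Pkd2-/-. All Pkd1-/- libraries exceeded all Wt libraries, whereas Pkd2-/- replicate 3 fell among the Wt values. Elf4 rose to 144% of the Wt mean in Pkd1-/- (0.54 ± 0.096, limma adjusted p = 0.000272) and to 132% in Pkd2-/- (0.41 ± 0.096, limma adjusted p = 0.00196). The mutants were not shown to differ from each other (-0.13, 95% interval -0.33 to 0.069, limma adjusted p = 0.285).

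Elf3 and Ehf, the epithelial factors, are known to control genes of barrier and secretory epithelia. Ehf (chr2:103263433-103303278, minus strand) was the most abundant ETS mRNA, at 16235, 13982, 14126 and 15007 in Wt. It was at 12050, 12192, 12201 and 12012 in Pkd1-/- and at 12237, 13593, 12604 and 13449 in Pkd2-/-. Every mutant library lay below every Wt library, with Pkd1-/- the tightest group. Ehf fell to 81.6% of the Wt mean in Pkd1-/- (-0.29 ± 0.051, limma adjusted p = 0.000225) and to 87.4% in Pkd2-/- (-0.19 ± 0.051, limma adjusted p = 0.00449). The difference between mutants did not pass (0.097, 95% interval -0.0092 to 0.20, limma adjusted p = 0.13).

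Elf3 (chr1:135253575-135258568, minus strand) was at 2761, 2895, 2709 and 2813 in Wt. It was at 3048, 2855, 2913 and 2857 in Pkd1-/- and at 2668, 2564, 2628 and 2943 in Pkd2-/-. The 3 groups overlapped. The log2 fold change was 0.062 in Pkd1-/- (95% interval -0.040 to 0.17, limma adjusted p = 0.397) and -0.051 in Pkd2-/- (95% interval -0.15 to 0.052, limma adjusted p = 0.447). Both intervals stayed within 0.17 of 0 on either side, narrower than the changes of Ets2 or Elk3 in the mutant in which they fell. Per kb of exons, Ehf exceeded Elf3 by 2.11 ± 0.173 times in Wt (SD, n = 4), 1.65 ± 0.0551 times in Pkd1-/- and 1.91 ± 0.136 times in Pkd2-/-.

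**Figure D2:**
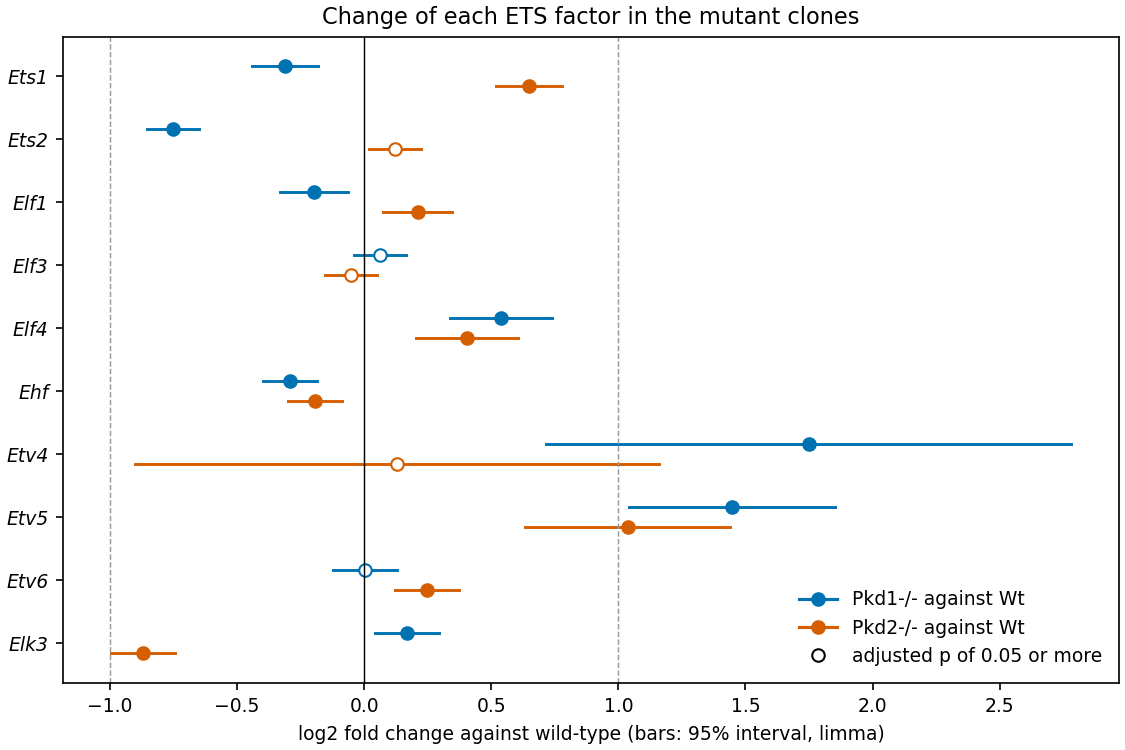
Log2 fold change of each member against Wt in Pkd1-/- (blue) and Pkd2-/- (orange), with 95% intervals from limma, filled points for adjusted p under 0.05 and dashed lines at the fold threshold. Ets1 (-0.31 and 0.65), Elf1 (-0.20 and 0.21) and Elk3 (0.17 and -0.87) passed in opposite directions, while Elf4, Ehf and Etv5 passed in the same direction.

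Etv4 and Etv5 belong to the PEA3 subgroup, whose expression is itself raised by fibroblast growth factor and Ret signalling. They were the least abundant members. Etv5 (chr16:22381309-22439719, minus strand) was at 26, 27, 35 and 26 in Wt. It was at 71, 62, 77 and 114 in Pkd1-/- and at 52, 64, 62 and 59 in Pkd2-/-. All 8 mutant libraries exceeded all 4 Wt libraries. Etv5 rose 2.84-fold in Pkd1-/- (1.45 ± 0.19, limma adjusted p = 1.14e-05) and 2.08-fold in Pkd2-/- (1.04 ± 0.19, limma adjusted p = 0.000217). In Pkd2-/- the estimate stood just past the fold threshold and went below it, to 0.998 at the lowest, when Wt replicate 1, Wt replicate 4 or Pkd2-/- replicate 2 was left out. The mutants were not shown to differ (-0.41, 95% interval -0.81 to -0.0069, limma adjusted p = 0.0911).

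Etv4 (chr11:101769742-101785371, minus strand) was at 6, 2, 6 and 7 in Wt. It was at 19, 23, 12 and 23 in Pkd1-/- and at 6, 1, 9 and 11 in Pkd2-/-. Only the Pkd1-/- libraries stood apart, at values where single reads weigh on each fold. Etv4 rose 3.67-fold in Pkd1-/- (1.75 ± 0.49, limma adjusted p = 0.0116). In Pkd2-/- its interval was wide (0.13, 95% interval -0.90 to 1.2, limma adjusted p = 0.867), and the direct difference from Pkd1-/- was -1.62 (limma adjusted p = 0.0107). Among 92 other genes of the ETS family and of the lists described below, counting only those that averaged 50 or more over the 12 libraries, the pair of fold changes closest to that of Etv4 belonged to Etv5, at a distance of 0.957 on the log2 scale, and then to Phlda1 at 1.16. Those closest to Etv5 among 91 such genes were Nr4a1 at 0.923 and Ptgs2 at 0.95. In Pkd2-/- both of these overlapped Wt and were far highest in replicate 4, at 9927 for Nr4a1 and 1468 for Ptgs2. Without the minimum, over 105 genes, genes at low counts lay closer, with Elf5 at 0.477 (mean of 2.08 counts) and Spry4 at 0.664 (mean of 12.4 counts) from Etv4, and Spry4 at 0.458 and Egr3 at 0.715 from Etv5.

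Etv6 and Elk3 are known as repressors. Etv6 (chr6:134035700-134270158, plus strand), which self-associates through its pointed domain, was at 1363, 1207, 1222 and 1419 in Wt. It was at 1225, 1386, 1328 and 1271 in Pkd1-/- and at 1525, 1550, 1498 and 1605 in Pkd2-/-. Wt and Pkd1-/- covered the same range and Pkd2-/- lay above both. Etv6 rose to 119% of the Wt mean in Pkd2-/- (0.25 ± 0.060, limma adjusted p = 0.00232). Its log2 fold change in Pkd1-/- was 0.0016 (95% interval -0.12 to 0.13, limma adjusted p = 0.993), and the mutants differed by 0.25 (limma adjusted p = 0.00215).

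Elk3 (chr10:93247414-93311135, minus strand), also called Net, is a ternary complex factor that binds beside serum response factor and represses until ERK phosphorylates it. It was at 1229, 1206, 1080 and 1230 in Wt. It was at 1257, 1405, 1334 and 1332 in Pkd1-/- and at 628, 700, 623 and 645 in Pkd2-/-. Every Pkd2-/- library lay below every other library, and Pkd1-/- lay just above Wt. Elk3 fell to 54.7% of the Wt mean in Pkd2-/- (-0.87 ± 0.060, limma adjusted p = 9.79e-10), the largest fall of a member in that clone. It rose to 112% in Pkd1-/- (0.17 ± 0.060, limma adjusted p = 0.0462), a call that was lost without any of Wt replicates 2 and 3, Pkd1-/- replicates 2 to 4 and Pkd2-/- replicate 1 (adjusted p up to 0.165). The mutants differed by -1.04 (limma adjusted p = 5.67e-11). On the opposite strand, 316 of the 4550 exon bases of Elk3 are shared with Cdk17.

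Levels were compared between genes per kb of exons. Ehf led in every genotype, at 2661 ± 186 normalized counts per kb in Wt (SD, n = 4), 2172 ± 17.4 in Pkd1-/- and 2326 ± 118 in Pkd2-/-. In Wt it was followed by Elf3 at 1260.5, Ets2 at 1130.3, and the non-members Gabpa at 867 and Elf2 at 541, and none of these neighbours overlapped. Next came Erf, Elf1 and Ets1 at 342, 334 and 317, each overlapping the next, and then Elk3, Elk4, Etv6, Etv3 and Elk1 at 261 to 178, likewise overlapping in turn. Elf4 at 96.8 and Etv5 at 6.95 stood apart from their neighbours, and Etv4 at 1.69 overlapped Spi1. In Pkd1-/- Ets2 went below Gabpa, at 671 and 744. In Pkd2-/- Ets2 and Elf3 overlapped at 1232 and 1218, Ets1 moved above Elf1 and Erf to 497, and Elk3 went from rank 9 to rank 13 at 143, beside Elf4 at 128. Summed over the family, the level was 8640 ± 362 per kb in Wt, 7591 ± 85.6 in Pkd1-/- and 8798 ± 415 in Pkd2-/-, and Ehf made up 30.8%, 28.6% and 26.4% of it.

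**Figure D3:**
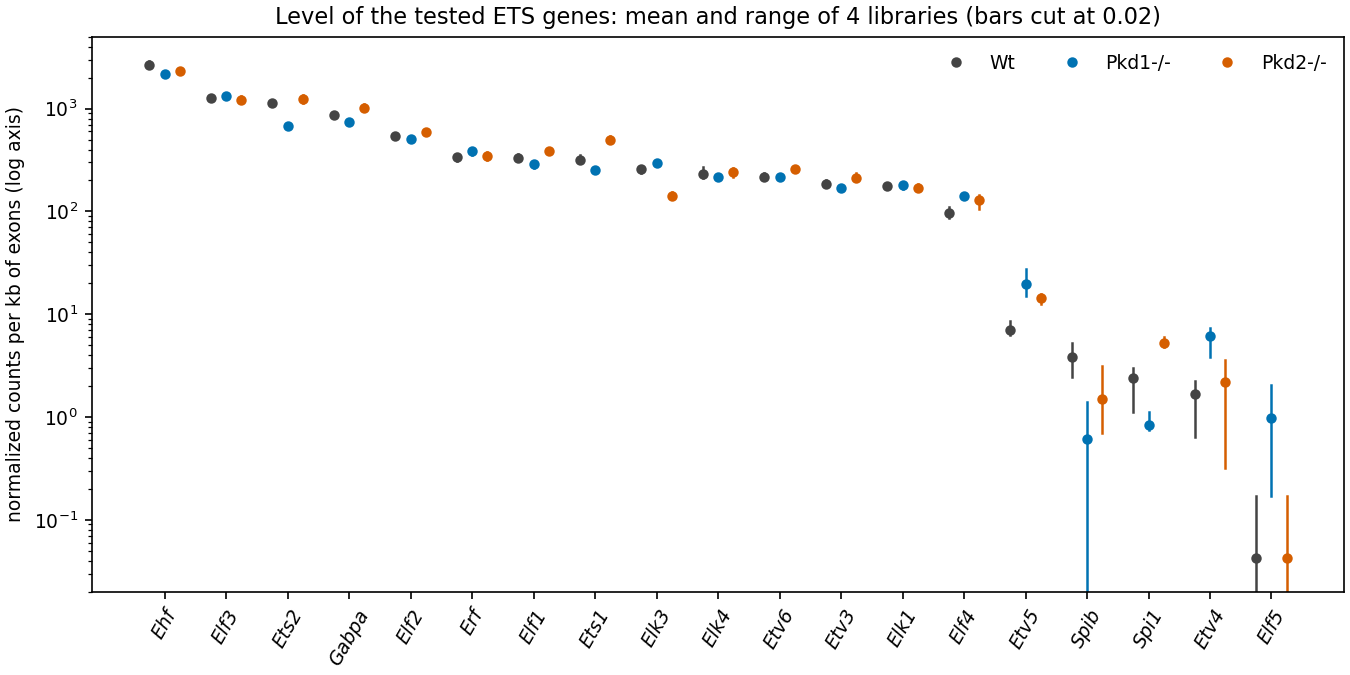
Normalized counts per kb of exons (log axis) of the 19 tested ETS genes, as means and ranges of 4 libraries in Wt (grey), Pkd1-/- (blue) and Pkd2-/- (orange), ordered by the Wt mean. Ehf was highest in each genotype (2661, 2172 and 2326), Ets2 dropped in Pkd1-/- and Elk3 in Pkd2-/-.

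Of the 17 other ETS genes, 9 had a mean of at least 1 normalized count and were tested. Gabpa, the DNA-binding subunit of a factor for nuclear genes of mitochondria, fell in Pkd1-/- (-0.22, limma adjusted p = 0.00726) and rose in Pkd2-/- (0.24, limma adjusted p = 0.00199), the same directions as Ets1 and Elf1. It shares 397 exon bases on the opposite strand with Atp5j, which is at higher counts. Elf2 and the repressor Etv3 rose in Pkd2-/- (0.13 and 0.20, limma adjusted p = 0.0272 and 0.0135). Elk1 and Elk4, ternary complex factors like Elk3, and Erf, a repressor controlled by ERK, passed in neither mutant. Their log2 fold changes were 0.021 and -0.057 for Elk1, -0.094 and 0.052 for Elk4, and 0.17 and 0.012 for Erf. Elk3 was therefore the only ternary complex factor that passed the test.

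The other tested genes were near the detection limit. Spi1, which directs myeloid cells, was at 7, 8, 3 and 8 in Wt, 2, 2, 3 and 2 in Pkd1-/- and 13, 16, 13 and 15 in Pkd2-/-. It passed in opposite directions (limma adjusted p = 0.019 and 0.0165), of which the first was lost without Wt replicate 2 or 4 (adjusted p up to 0.0592) and the second without Wt replicate 3 (0.0671). The leukocyte markers Ptprc and Itgam were at 5 or less and at 0, while Csf1r was at 828 to 941, 381 to 587 and 663 to 774 in Wt, Pkd1-/- and Pkd2-/-. The part of Csf1r-expressing cells in the Spi1 values was not tested. Spib, a factor of B cells, was at 15, 8, 14 and 7 in Wt, 0, 4, 2 and 1 in Pkd1-/- and 4, 2, 9 and 2 in Pkd2-/-, lower in both mutants (limma adjusted p = 0.00239 and 0.0494), the latter lost without any of Wt replicates 1 to 3, Pkd1-/- replicates 3 and 4, and Pkd2-/- replicates 1, 2 and 4 (adjusted p up to 0.134). Elf5, known from mammary and trophoblast cells, was at 1, 6, 12 and 4 in Pkd1-/- and at most 1 elsewhere, and it passed the filter through the Pkd1-/- libraries. Etv1, Fli1 and Spdef had at most 6 counts in any library, and Erg, Etv2, Etv3l, Fev and Spic had 0 in all 12. A 0 in a single library, taken alone, allows up to 3 counts.

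Genes upstream of the ETS factors were read next. Of 16 genes of the Ras-ERK cascade, 2 passed in Pkd1-/- and 8 in Pkd2-/-, 4 higher and 4 lower, beside 27.1% and 42.3% of all genes, with medians of 0.015 and 0.017. In Pkd1-/- these were Map2k1 (MEK1), higher by 0.24, and Nras, at -0.20. In Pkd2-/- the scaffold Ksr1 rose (1.75, limma adjusted p = 1.96e-07), from 47 to 74 counts in Wt to 175 to 197. Mapk3, which encodes ERK1, fell there (-0.60, limma adjusted p = 3.6e-09), from 4204 to 4776 in Wt to 2830 to 3010, with no overlap. Nf1, which switches Ras off, rose there (0.52, limma adjusted p = 0.00107), at 1749 to 2824 against an overlapping 1315 to 1798 in Wt.

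Of 17 genes listed as known or possible regulators of ETS proteins or of ETS gene transcription, 4 passed in Pkd1-/- and 8 in Pkd2-/-. Of all genes, 27.1% and 42.3% passed. Of those in Pkd2-/-, 7 were higher, beside 20% of all genes. Siah2 (0.60) and Cbl (0.48), ubiquitin ligases, and Ep300 (0.57), a co-activator, rose in Pkd2-/- (limma adjusted p = 7.05e-07, 0.00426 and 4.03e-05). Cbl overlapped Wt there, at 1208 to 1861 against 876 to 1282. Whether Siah2 and Cbl act on ETS proteins in these cells was not tested. Cop1, the ligase that directs Ets1, Ets2, Etv4 and Etv5 to degradation, passed in neither mutant (0.056 and -0.086, limma adjusted p = 0.409 and 0.135). Cic, the repressor of Etv4 and Etv5 transcription, did not pass either (0.13 and -0.025, limma adjusted p = 0.166 and 0.798). Of the genes that passed in Pkd1-/-, Trib1 (-0.39), Trib2 (-3.16) and Camk2d (-0.29) were lower. Trib1 and Trib2 are known partners of Cop1, and Trib2 was at 32 to 61 counts in Wt and 1 to 7 in Pkd1-/-. Without Wt replicate 4, 2 of the 17 genes passed in Pkd1-/-.

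**Figure D4:**
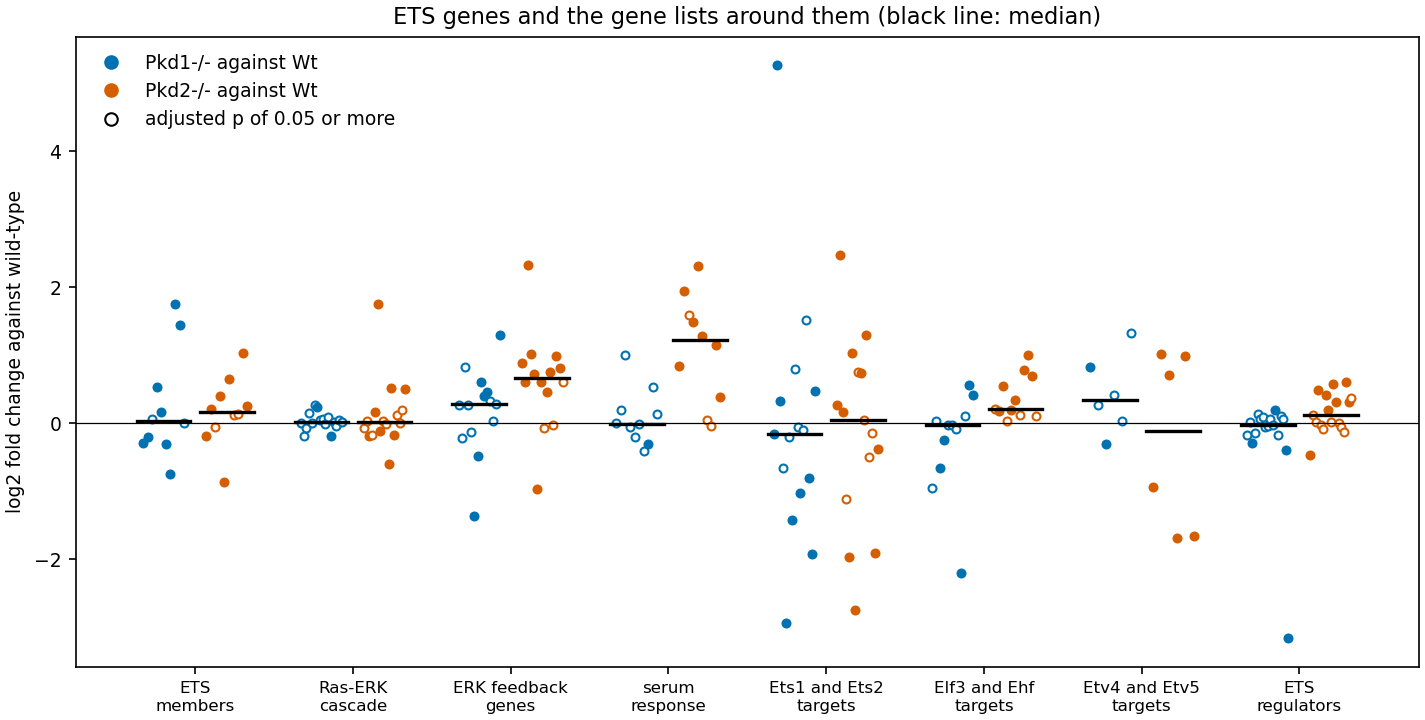
Log2 fold change against Wt of the members and of the lists around them in Pkd1-/- (blue) and Pkd2-/- (orange), 1 point per tested gene, open where adjusted p was 0.05 or more, with medians as black lines. The ERK feedback and serum response lists had medians of 0.66 and 1.22 in Pkd2-/-, and the members 0.17.

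Genes known to be raised by ERK signalling, many of which restrain it in turn, were mostly higher in Pkd2-/- cells. Of 14 such genes, 11 passed there, 10 higher and 1 lower, with a median of 0.66, and 6 passed in Pkd1-/-, 4 higher and 2 lower, with a median of 0.28, beside 20% of all genes higher in Pkd2-/- and 13.6% in Pkd1-/-. Dusp6, a phosphatase specific for ERK, was at 502, 601, 679 and 919 in Wt, 699, 770, 804 and 897 in Pkd1-/- and 1111, 1179, 1202 and 2034 in Pkd2-/-. All Pkd2-/- libraries exceeded all others, and replicate 4 stood far above its group. Dusp6 rose by 1.02 in Pkd2-/- (limma adjusted p = 7.69e-05) and by 0.82 without that replicate. Dusp5, a nuclear ERK phosphatase, rose by 2.33 (limma adjusted p = 1.12e-05), or by 1.95 without replicate 4. Epha4, an ephrin receptor, fell in both mutants (-1.37 and -0.96). Spry4, an inhibitor of the cascade, rose in Pkd1-/- (1.29, limma adjusted p = 0.004), at 16 to 22 counts against 6 to 9 in Wt, and its Pkd2-/- value did not pass (0.61, limma adjusted p = 0.132).

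Serum response genes, at which Elk1, Elk3 and Elk4 act with serum response factor, differed between the mutants. Of 10 genes, 7 passed in Pkd2-/-, all higher, with a median of 1.22, and 1 passed in Pkd1-/-, Mcl1 (-0.31), with a list median of -0.0079. Of all genes, 20% were higher in Pkd2-/- and 27.1% passed in Pkd1-/-. With the replicate number as a block, 4 of the 10 passed in Pkd1-/-. Without Pkd2-/- replicate 4, 3 genes passed in Pkd1-/-, and without Wt replicate 1 or Pkd1-/- replicate 4, 2 did. In Pkd2-/- Fosb rose by 2.32, Egr2 by 1.94 and Fos by 1.49 (limma adjusted p = 0.000138, 1.72e-05 and 3.5e-05). Egr2 was at 285, 429, 399 and 629 in Wt, 379, 444, 519 and 592 in Pkd1-/- and 1050, 1308, 1346 and 3608 in Pkd2-/-. All Pkd2-/- libraries stood above the rest, with replicate 4 highest, and without it Egr2 was higher by 1.55, Fosb by 1.95 and Fos by 1.25, and 7 of 10 genes passed. Elk3 in the same Pkd2-/- libraries was at 628, 700, 623 and 645, with replicate 4 within its group. In the direct comparison 8 of the 10 genes were higher in Pkd2-/- than in Pkd1-/-, beside 21.9% of all genes.

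**Figure D5:**
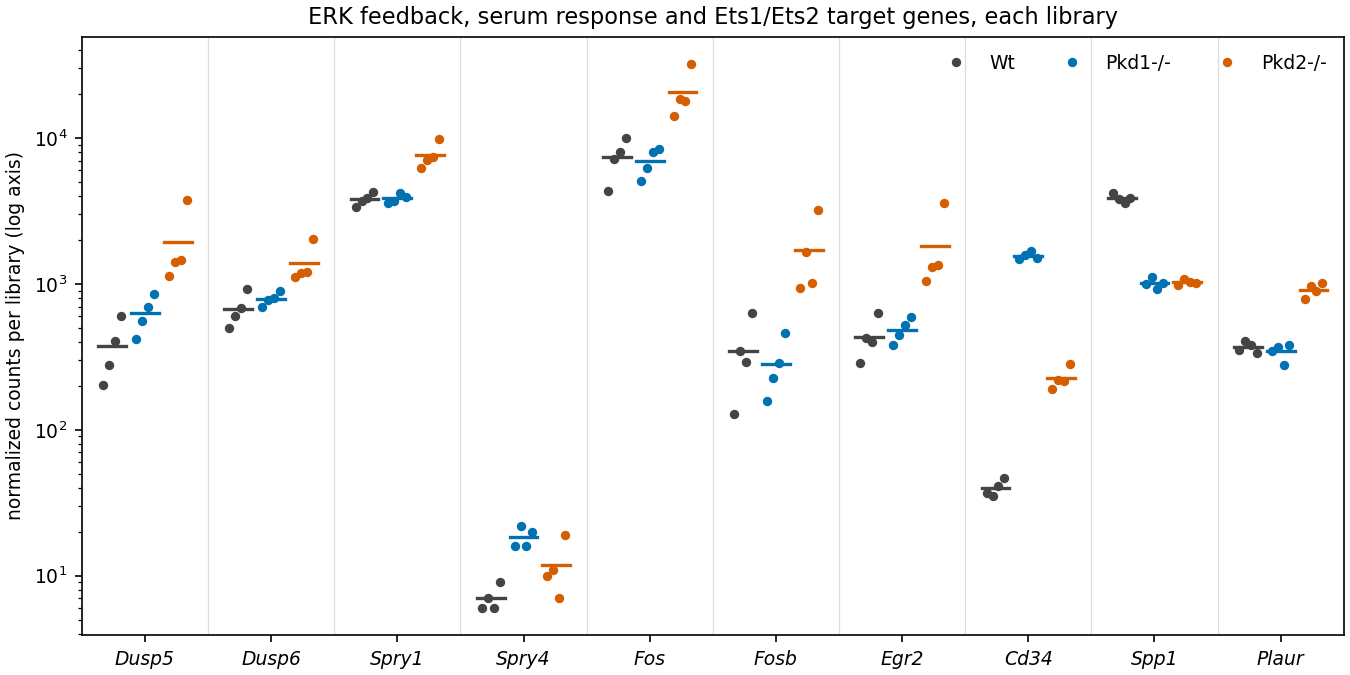
Normalized counts (log axis) of listed ERK feedback, serum response and Ets1 and Ets2 target genes in each library, with points for libraries and lines for genotype means. Dusp5, Dusp6 and Egr2 stood highest in Pkd2-/- replicate 4 (3744, 2034 and 3608), and Cd34 was at 1475 to 1680 in Pkd1-/- against 35 to 47 in Wt.

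Among 15 tested genes known as targets of Ets1 or Ets2, 9 passed in Pkd1-/-, 3 higher and 6 lower, and 10 in Pkd2-/-, 6 higher and 4 lower, with medians of -0.17 and 0.050. Of all genes, 27.1% and 42.3% passed. Cd34, a sialomucin, was at 37, 35, 41 and 47 in Wt, 1475, 1580, 1680 and 1510 in Pkd1-/- and 191, 218, 217 and 284 in Pkd2-/-. It rose in both mutants (5.26 and 2.47, limma adjusted p = 3.66e-16 and 4.15e-12). Spp1, which encodes osteopontin, fell in both (-1.92 and -1.91, limma adjusted p = 5.03e-14 and 1.52e-14). Cd34 and Spp1 were singled out by the study on these libraries and are not independent evidence of a direction. Plaur, the urokinase receptor, rose in Pkd2-/- (1.30, limma adjusted p = 3.93e-09) and not in Pkd1-/- (-0.10, limma adjusted p = 0.499).

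Among 11 tested epithelial genes linked to Elf3 and Ehf, 5 passed in Pkd1-/-, 2 higher and 3 lower, and 7 in Pkd2-/-, all higher, with medians of -0.027 and 0.21. Of all genes, 27.1% passed in Pkd1-/-, and 20% were higher in Pkd2-/-. Lcn2, a siderophore-binding protein, was at 2862, 2954, 2893 and 2616 in Wt, 710, 558, 643 and 558 in Pkd1-/- and 5249, 5164, 4753 and 4334 in Pkd2-/-. It fell in Pkd1-/- (-2.20, limma adjusted p = 1.57e-13) and rose in Pkd2-/- (0.78, limma adjusted p = 1.15e-07). Ptgs2, cyclooxygenase-2, rose in both (0.56 and 0.70, limma adjusted p = 0.035 and 0.0057). In Pkd2-/- Ptgs2 was at 570, 743, 687 and 1468, with replicate 4 far highest, and it overlapped Wt at 457 to 585. Ovol1 rose in Pkd2-/- (0.996, limma adjusted p = 3.22e-07), just under the fold threshold. Cdh1, E-cadherin, rose in Pkd2-/- by 0.18 (limma adjusted p = 0.00296) and had a log2 fold change of 0.028 in Pkd1-/-, and Krt8 passed in neither.

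Of 10 ureteric bud genes placed downstream of Etv4 and Etv5, Ret, Cxcr4, Mmp14 and Kif26b were under the filter, with 0 for Ret in all 12 libraries. Of the 6 tested, 2 passed in Pkd1-/-, 1 higher and 1 lower, the latter Met (-0.30), beside 27.1% of all genes. All 6 passed in Pkd2-/-, beside 42.3% of all genes. Met, Dusp6 and Spry1 were higher there (0.71, 1.02 and 0.99), of which Dusp6 and Spry1 are also in the ERK feedback list. The other 3 were lower, among them Myb (-1.69) and Wnt11 (-1.65, limma adjusted p = 0.0332). Myb was at 72 to 106 in Wt, 94 to 164 in Pkd1-/- and 19 to 38 in Pkd2-/-. Wnt11, a secreted signal of the ureteric bud tip, was at 0, 6, 6 and 7 in Wt, 10, 5, 16 and 13 in Pkd1-/- and 1, 1, 0 and 0 in Pkd2-/-, near the detection limit and with Wt and Pkd2-/- overlapping.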

How the data were processed

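Per the labels and the study's methods, the authors trimmed reads with Trim Galore, used HISAT2 for alignment and HTSeq for counting by Ensembl gene, and normalized with DESeq2. What was deposited is a score, the normalized count of DESeq2 after rounding to whole numbers by the authors, so no count model was run. All 12 sample columns were used and 0 were left unused. Gene symbols, positions and exon lengths came from GENCODE M21 (GRCm38), in which 47223 of 47642 identifiers were found. With R 4.3.3 and limma 3.58.1, log2(value + 1) of 18552 genes (mean of 1 or more) was fitted with lmFit and eBayes with a variance trend, in 1 model of 12 libraries. Tests were two-sided, Benjamini-Hochberg adjustment was made separately for the 3 comparisons, and 95% intervals came from the same fit. The fit was tested on simulated counts with the same dispersion for every gene. That check holds no difference between clones or between library numbers, and does not cover them. A count of 0 allows up to 3 counts, a limit that covers counting error only. No pair of replicate libraries was alike, with at least 19339 genes differing.

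Members and lists were chosen with earlier results of these data known. The text names all 10 members, the other ETS genes, Pkd1, Pkd2, the 3 genes per list with the largest change among those called with a mean of at least 50, and Cd34, Spp1, Dusp6, Spry4, Cic, Cop1, Cdh1 and Krt8. Further list genes were named after their values were seen, and some list genes are not reported here. Closeness of genes is the Euclidean distance between their pairs of log2 fold changes, among listed genes with a mean of at least 50 and, after the values were seen, also without that minimum. Alternatives were other pseudocounts (0.5 and 5), filters (none and a mean of at least 10), scalings, weights, sample sets, a replicate block and each library left out. Promoter windows were read from RefSeq (GRCm38.p6) for 7 members. Python 3.11.15 with pandas 2.3.3 and matplotlib 3.10.9 made the tables and figures.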

Additional observations from a re-analysis of the deposited data

Results flagged for a closer look

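Members called in opposite directions in the mutants were Ets1, with a log2 difference between Pkd2-/- and Pkd1-/- of 0.96, Elf1 with 0.41 and Elk3 with -1.04, by the direct limma comparison in the same model. Gabpa (0.46) and Spi1 (2.24) were the other ETS genes of this kind.

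Dixon's test was run on ETS genes and on the list genes named by the rule above. List genes named after their values were seen, among them Nr4a1, were not included. Among 127 groups of 4 libraries with a mean of at least 5, 10 held a library far from the other 3, which chance gives in about 1 group of 20. For the members these were Ets2 in Wt replicate 1 (6727 normalized counts), Etv5 in Wt replicate 3 (35) and Elk3 in Wt replicate 3 (1080). Without these libraries Ets2 still fell in Pkd1-/-, Elk3 in Pkd2-/- and Etv5 rose in both mutants. Ets2 in Pkd2-/- passed the limma test without Wt replicate 1, and Elk3 in Pkd1-/- did not pass without Wt replicate 3 (adjusted p = 0.165). Pkd2-/- replicate 4 stood apart for Etv3 (2430), Dusp5 (3744), Dusp6 (2034) and Egr2 (3608). Wt replicate 1 stood apart for Ksr1 (74) and Cic (2856), and Pkd1-/- replicate 1 for Cic (3067).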

How the results depend on the processing

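Over the members' genes and comparisons, 344 of 360 values with 1 library left out and 261 of 270 under other settings kept their side of the threshold. Of values that passed in either fit, 0 reversed direction. For values that passed in neither fit, direction was not compared. The count of members past both thresholds in Pkd2-/- was 0 in place of 1 with a pseudocount of 5, with libraries rescaled to the same upper quartile and with library weights, and 0 to 1 with a library left out, since Etv5 lies at the fold threshold. ETS family genes called in Pkd2-/- numbered 12 of 19 tested, beside 42.3% of all genes, and ranged from 7 to 13 with a library left out, lowest without Wt replicate 3. Serum response genes called in Pkd1-/- numbered 4 with the replicate block, 3 with only the genotypes compared and 2 with library weights, in place of 1, and 1 to 3 with a library left out. Regulators called in Pkd1-/- numbered 2 without the variance trend, in place of 4, and 2 to 4 with a library left out. The cause was not tested. Settings for the lists were chosen after seeing the data. Only the replicate number links libraries across genotypes. Deviations of same-numbered libraries correlated between -0.073 and 0.200, and those of other pairs between -0.199 and 0.114. Of the 12 same-numbered pairs, 2 were over 0.1. They were replicate 4 of Wt with replicate 4 of Pkd2-/- (0.200), and replicate 4 of Pkd1-/- with replicate 4 of Pkd2-/- (0.167). In both other genotypes, 3 of 12 libraries correlated best with their own number, and these were replicate 4 of each genotype. With the replicate block 8, 7 and 6 members passed in the 3 comparisons, as without it. The calls of Elf1 in both mutants and of Elk3 in Pkd1-/-, and the missed call of Ets2 in Pkd2-/-, lie near the threshold. The table gives no depth per library, which limits what can be said of Etv4, Spi1, Spib and Elf5.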

Other observations

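Among the genes around the ETS factors, some followed the library number in each genotype alike. Dusp5 and Dusp6 of 14 ERK feedback genes, and Egr2, Fos, Fosb and Nr4a1 of 10 serum response genes, were lowest in replicate 1 and highest in replicate 4 in all 3 genotypes. Over all 18552 genes tested this held for 41, or 0.221%, and for 0 of the 10 members. What the numbers stand for is not given in the sources used here, and the pattern was noticed in these data.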
